A study of Rattus norvegicus with 6 samples.

Results

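The genes described here encode the lysosome's proton pump, its cathepsin proteases, lysosomal membrane proteins and the core machinery of macroautophagy. They were chosen by symbol: every name beginning Atp6v or Atp6ap, the single-letter cathepsins, numbered Atg genes, Lamp1 and Lamp2, plus 11 named autophagy and lysosome genes. The rule found 72 of the 17487 gene symbols of the table. RNA came from whole heart tissue of 6 adult male Wistar rats, an outbred laboratory strain, with 1 library per heart. The doxorubicin group (n = 3) received doxorubicin hydrochloride, an anthracycline chemotherapy drug, at 3.75 mg/kg into the tail vein each week for 4 weeks. Control rats (n = 3) were given 0.9% sodium chloride by the same route and schedule. The part of the heart, the age in weeks and the interval between the last injection and collection are not given in the sources used here.

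Lysosomes are acidic compartments in which proteases, lipases and glycosidases digest material delivered by endocytosis and by autophagy. The vacuolar ATPase (V-ATPase) acidifies them: its cytosolic V1 sector hydrolyses ATP, and its membrane V0 sector moves protons into the lumen. In macroautophagy a double membrane, the autophagosome, closes around cytoplasm and fuses with the lysosome. Cardiomyocytes rarely divide and rely on this route to remove damaged mitochondria and protein aggregates, and lysosomal acidification is one of the steps that has been studied in anthracycline cardiotoxicity.

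No member differed between the groups past the threshold. Of the 72 members, 52 had enough reads to be tested, and 0 of these 52 passed a Benjamini-Hochberg adjusted p of 0.05 in edgeR's quasi-likelihood test, in which 0.0543% of all 9205 tested symbols passed (5 symbols). At an unadjusted p under 0.05 there was 1 member, Atg13, or 1.92% of the 52, where the share of all tested symbols was 8.1%. DESeq2 likewise called 0 members after adjustment and 1, Atg13 again, at an unadjusted p under 0.05, among the 62 members with any counts. Over the 13048 symbols with a p-value, DESeq2 called 74 (0.567%) after adjustment and 723 (5.54%) at an unadjusted p under 0.05. Its default filter can leave low-count symbols without an adjusted p, and any such symbol counts here as not called. The 3 doxorubicin hearts lay wholly on one side of the 3 control hearts for 3 members, 5.77%, against 13.4% of all tested symbols. Those members were Atg13 (higher) and Map1lc3b and Atg4c (lower). In whole tissue, fewer cells of a type and less RNA per cell cannot be told apart.

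The estimates were small as well as uncalled. The log2 fold change, doxorubicin minus control, ran from -0.67 (Ctsw) to 0.55 (Atg13) over the 52 members, with a median of -0.05, and the median of all tested symbols was 0.02. Only 2 of the 52, 3.85%, were at least 0.5 in size, against 14.4% of all tested symbols. For 46 members, 88.5%, the 95% interval of the log2 fold change lay between -1 and 1, that is, inside a 2-fold change either way, against 70.3% of all tested symbols. The other 6 were Atp6v1g2, Atp6ap1l, Ctsw, Atg13, Atg4c and Atg16l2, and all of these but Atg13 had at most 49 counts in any library. The median SD of log2 CPM (counts scaled to a common library total with TMM factors) among the 3 hearts of a group was 0.20 for control and 0.22 for doxorubicin over the members, and 0.27 and 0.26 over all tested symbols. These shares also depend on read depth, and no member group was tested as a set.

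**Figure D1:**
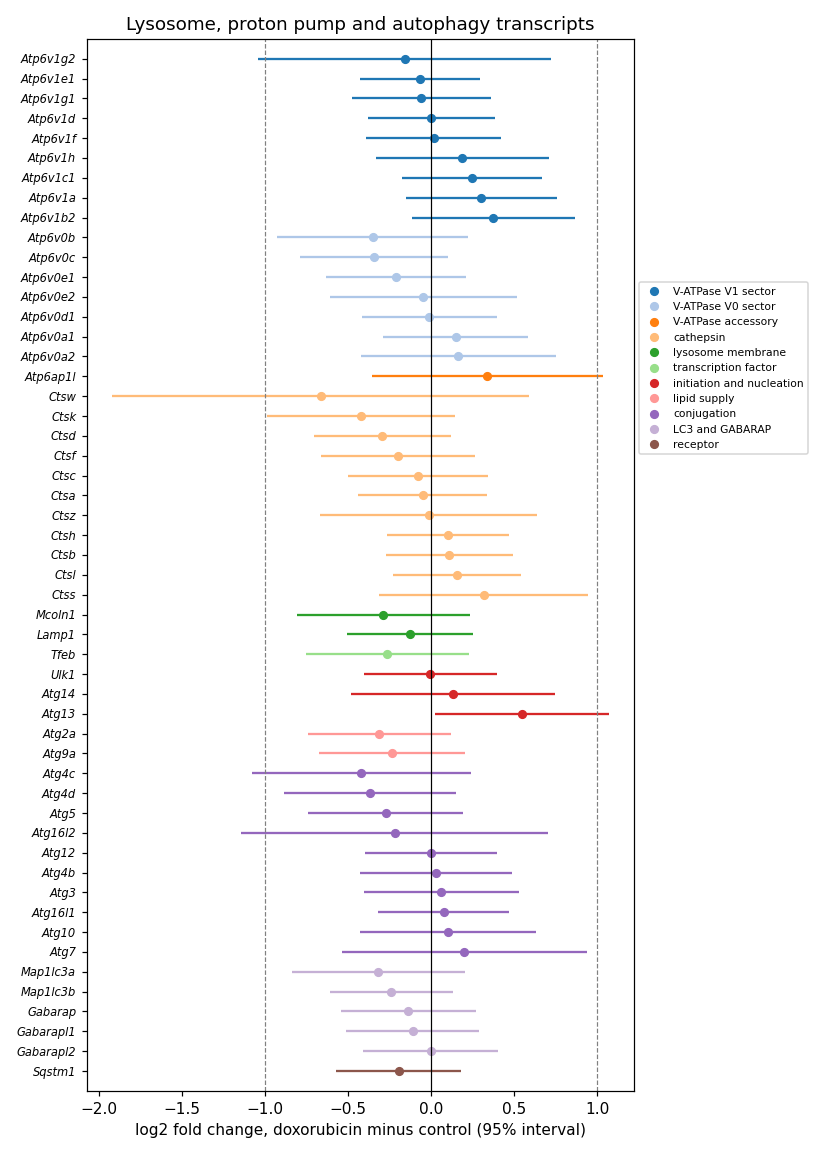
Log2 fold change of the 52 tested members, doxorubicin minus control (horizontal axis), with 95% intervals as lines and genes coloured and ordered by role. Dashed lines mark a 2-fold change: 46 intervals lie between them, and every interval except that of Atg13 (0.02 to 1.07) includes 0.

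The 20 untested members fell into sorts that need separate reading. Of 10 members with 0 counts in all 6 libraries, 5 were Lamp2, the transcription factor gene Tfe3, the pump's accessory genes Atp6ap1 and Atp6ap2, and the protease gene Atg4a. The reference gene table of assembly GRCr8 places these 5, and no other member, on the X chromosome. There 489 of 491 protein-coding symbols (99.6%) had 0 counts in all libraries, whereas on the 20 autosomes the share was between 8.42% and 19.2%. The 0 counts of these 5 genes are therefore a property of the table for a whole chromosome and give no level in the heart. Lamp2, whose loss causes the human cardiomyopathy known as Danon disease, is among them.

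**Figure D2:**
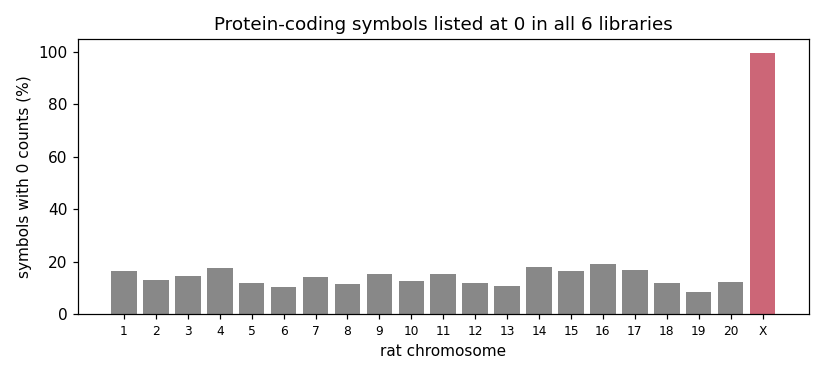
Share of protein-coding symbols listed at 0 in all 6 libraries (vertical axis, percent) for each rat chromosome (horizontal axis). The X chromosome stands at 99.6%, and the highest autosome at 19.2%.

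The other 5 members at 0 were Becn1, Ctsg, Ctsj, Ctsq and Ctsr. Becn1, which encodes the beclin subunit of the autophagy lipid kinase complex, stood on 2 rows of the table with 0 counts on each. Among the 599 symbols that stood on several rows, 48.6% had 0 counts, against 24.6% of symbols on 1 row, and the treatment of reads shared between such rows is not given in the sources used here, so Becn1 too is only listed at 0. Ctsj, Ctsq and Ctsr, like Ctsm with 1 count in all, belong to the rodent cathepsins known from placenta, and Ctsg is a protease of neutrophils and mast cells. A further 10 members had counts but stayed below the filter. Among them were the V-ATPase subunits known from kidney, bone or testis, Atp6v0a4, Atp6v0d2, Atp6v1b1, Atp6v1e2 and Atp6v1g3, with at most 3 counts in any library. Atg9b had 0 to 2 counts and Ctse, an aspartic protease gene, 1 to 12. Atg101 had 0 to 3 counts over 2 rows, so the limit given for Becn1 holds for Atg101 too, and its level in the heart is uncertain. A level of 3 counts corresponds to 0.852 to 1.33 CPM with TMM factors in these libraries, for counting error only.

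TFEB and TFE3 are transcription factors that enter the nucleus when the lysosomal kinase mTORC1 is inactive and bind a palindromic sequence, the CLEAR motif, near the start of many lysosomal genes. Tfeb had 93.2, 54.6 and 63.6 CPM in control hearts 1, 2 and 3 and 68.7, 59.0 and 48.3 CPM in doxorubicin hearts 1, 2 and 3. The groups overlapped, with control heart 1 highest, and the log2 fold change was -0.27 (SE 0.23, edgeR adjusted p 0.802). Without control library 1 it was -0.01.

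The core letters TCACGTGA of that motif, which read the same on both strands and contain the E-box CACGTG, were looked for in the promoters that RefSeq gives for GRCr8, from 250 bases before to 50 bases after each gene start. Of the 72 members, 61 had a promoter there, and 6 of these (9.84%) held the core, against 260 of all 33469 promoters (0.777%). Among tested genes the figures were 6 of 44 members (13.6%) and 127 of 7171 symbols (1.77%). The overlapping letters GTCACGTG, on either strand, were in 7 of the 61 members' promoters (11.5%) and 1.85% of all promoters, and CACGTG alone in 9 (14.8%) and 6.42%. Among tested genes GTCACGTG was in 15.9% of members and 4.21% of symbols, and CACGTG in 20.5% and 9.72%. A match describes the letters only, and no binding was measured.

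The 6 promoters with the core are shown because they include the genes by which lysosomal transcription is usually followed. Each window runs 5′ to 3′ along the gene from 100 bases before to 50 bases after its start, with TCACGTGA in capitals. The windows are chr16:83075014-83075163 on the minus strand (Lamp1), chr1:206968772-206968921 on the minus strand (Ctsd), chr12:6358158-6358307 on the plus strand (Mcoln1), chr19:50357199-50357348 on the minus strand (Atp6v0d1), chr10:17007107-17007256 on the minus strand (Atp6v0e1) and chr11:69159231-69159380 on the minus strand (Atg3). All are GRCr8 coordinates, which is not the build named in the submitters' processing notes.
Lamp1: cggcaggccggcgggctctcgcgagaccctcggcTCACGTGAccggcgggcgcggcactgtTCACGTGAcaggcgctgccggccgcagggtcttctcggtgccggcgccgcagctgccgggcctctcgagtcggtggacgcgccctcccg
Ctsd: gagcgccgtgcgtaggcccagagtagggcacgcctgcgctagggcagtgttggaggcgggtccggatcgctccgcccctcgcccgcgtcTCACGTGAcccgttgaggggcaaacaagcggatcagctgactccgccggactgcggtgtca
Mcoln1: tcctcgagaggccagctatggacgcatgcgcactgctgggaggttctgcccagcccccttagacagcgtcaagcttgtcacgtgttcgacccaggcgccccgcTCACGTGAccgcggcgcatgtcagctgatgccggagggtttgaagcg
Atp6v0d1: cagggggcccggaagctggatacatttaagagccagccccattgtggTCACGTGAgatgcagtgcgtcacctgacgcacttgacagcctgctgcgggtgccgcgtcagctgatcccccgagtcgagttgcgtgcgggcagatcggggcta
Atp6v0e1: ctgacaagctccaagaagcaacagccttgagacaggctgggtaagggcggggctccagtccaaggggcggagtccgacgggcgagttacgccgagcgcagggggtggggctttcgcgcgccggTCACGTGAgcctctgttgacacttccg
Atg3: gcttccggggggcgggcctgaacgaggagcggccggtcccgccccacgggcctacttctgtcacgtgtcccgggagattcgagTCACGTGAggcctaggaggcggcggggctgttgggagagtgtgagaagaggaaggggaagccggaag

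Lamp1 held the core at 2 places, at positions -66 and -39, and the other 5 genes held it once. Ctsd, Mcoln1, Atp6v0d1, Atp6v0e1 and Atg3 held it at positions -11, 4, -53, 24 and -17. A position is that of the core's first base, counted from the gene start, whose own base is 1 and whose preceding base is -1. None of these 6 genes passed the test. Their log2 fold changes were -0.13 for Lamp1, -0.30 for Ctsd, -0.29 for Mcoln1, -0.01 for Atp6v0d1, -0.21 for Atp6v0e1 and 0.06 for Atg3, each with a 95% interval inside a 2-fold change.

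In the V1 sector, 9 of 13 genes were tested, 0 passed, and the log2 fold changes ran from -0.16 to 0.37 with a median of 0.01. Atp6v1b2 encodes the B subunit, which with the A subunit forms the ATP-hydrolysing ring. It had 118, 140 and 124 CPM in control hearts and 233, 131 and 131 CPM in doxorubicin hearts. Doxorubicin heart 1 was far above the other 5 hearts, which covered 118 to 140 CPM, and the groups overlapped. Its log2 fold change of 0.37 (SE 0.23, edgeR adjusted p 0.715) was 0.04 without doxorubicin library 1.

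The same heart was the highest of the 6 for several other V1 genes. Over the 52 members it was the highest for 7 (13.5%), against 18.5% of all tested symbols. Atp6v1a, encoding the catalytic A subunit, had 36.3, 42.6 and 36.9 CPM in control and 55.9, 38.7 and 48.0 CPM in doxorubicin hearts, and doxorubicin heart 2 lay below control heart 2. Atp6v1h, encoding a regulatory subunit, had 45.4, 43.1 and 42.9 CPM in control and 69.3, 44.6 and 35.7 CPM in doxorubicin hearts. Atp6v1c1, encoding a stator subunit, had 50.4, 60.4 and 64.2 CPM in control and 79.6, 59.9 and 68.4 CPM in doxorubicin hearts. For A, H and C1 the log2 fold changes were 0.30 (SE 0.21), 0.19 (SE 0.24) and 0.25 (SE 0.20), none past the threshold. Without doxorubicin library 1 they were 0.18, -0.12 and 0.14. The stalk and rotor genes Atp6v1d and Atp6v1e1 differed little: the mean of Atp6v1d was 229 ± 28.4 CPM in the control group and 228 ± 19.1 CPM after doxorubicin (SD, n = 3), and that of Atp6v1e1 was 204 ± 3.18 and 195 ± 14.5 CPM. The 95% interval of the log2 fold change was -0.38 to 0.38 for Atp6v1d and -0.43 to 0.29 for Atp6v1e1.

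In the V0 sector, 7 of 9 genes were tested and 0 passed, with log2 fold changes from -0.35 to 0.16 and a median of -0.05. Atp6v0c encodes the c subunit of the proton-carrying ring. It had 845, 546 and 550 CPM in control hearts and 527, 556 and 446 CPM in doxorubicin hearts. Control heart 1 was the high one, and the other 5 hearts lay between 446 and 556 CPM. The log2 fold change was -0.35 (SE 0.21, edgeR adjusted p 0.706) and -0.10 without control library 1. Atp6v0b, another ring subunit, had 112 CPM in control heart 1 and 44.5 to 68.1 CPM in the other 5 hearts, and its value of -0.35 became 0.03 without that library. The a subunits, which place the pump in particular membranes, were represented by Atp6v0a1 (log2 fold change 0.15, SE 0.20) and Atp6v0a2 (0.16, SE 0.27). Atp6v0a1 was at -0.036 without doxorubicin library 2. Doxorubicin heart 3 had 34.5 CPM of Atp6v0a2 against 19.0 to 24.4 CPM in the other 5 hearts, and without that library the value was -0.14. The accessory gene Atp6ap1l had 17 to 49 counts per library, with a value of 0.34 (SE 0.32).

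Summed over the sector, V1 transcripts made up 974 to 1103 CPM in control hearts and 980 to 1237 CPM in doxorubicin hearts. V0 transcripts made up 1056 to 1520 CPM in control and 972 to 1170 CPM in doxorubicin hearts. In each case the groups overlapped.

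Among the cathepsins 11 of 17 genes were tested and 0 passed, with log2 fold changes from -0.67 to 0.31 and a median of -0.05. Ctsd encodes the main aspartic protease of lysosomes. It had 860, 614 and 661 CPM in control and 529, 664 and 547 CPM in doxorubicin hearts, and doxorubicin heart 2 lay within the control range. The log2 fold change of -0.30 (SE 0.19, edgeR adjusted p 0.730) was -0.13 without control library 1.

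The cysteine protease genes Ctsb and Ctsl lay on the other side of 0. Ctsb had 798, 629 and 645 CPM in control and 732, 776 and 727 CPM in doxorubicin hearts, with control heart 1 the highest of all, and a log2 fold change of 0.11 (SE 0.18, 95% interval -0.27 to 0.49). Ctsl had 317, 282 and 376 CPM in control and 349, 381 and 356 CPM in doxorubicin hearts. Its groups overlapped, with a log2 fold change of 0.16 (SE 0.18, 95% interval -0.23 to 0.54). Ctsa, the protective protein of lysosomal neuraminidase, and Ctsh, an aminopeptidase, had values of -0.05 (SE 0.18) and 0.10 (SE 0.17) on the same log2 scale.

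Cathepsins known from cells other than cardiomyocytes were also uncalled. Ctsk, a collagen-degrading protease of osteoclasts and fibroblasts, had 22.1, 21.3 and 24.1 CPM in control and 15.7, 21.5 and 13.3 CPM in doxorubicin hearts. Doxorubicin heart 2 was level with the controls and the other pair lay below them, with a log2 fold change of -0.42 (SE 0.26, edgeR adjusted p 0.719). Ctss, the protease of antigen-presenting cells, had 21.8, 31.5 and 30.4 CPM in control and 23.8, 52.1 and 28.3 CPM in doxorubicin hearts. Only doxorubicin heart 2 exceeded the control range, and the log2 fold change of 0.31 (SE 0.29) was -0.09 without it. Ctsw, a protease of cytotoxic lymphocytes, had the most negative value, -0.67 (SE 0.59), from 4 to 16 counts per library. It was -0.13 without control library 2, where Atp6v0b was the lowest member at -0.53, and -1.16 without doxorubicin library 1.

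Levels of the markers of those cells are given beside these values. Of 20 macrophage markers 18 were tested and 15 had a log2 fold change above 0, beside 52.1% of all tested symbols. At an unadjusted p under 0.05, 4 were higher (Cd163, Mrc1, Lyz2 and Lyve1), beside 4% of all tested symbols, and 0 passed after adjustment in edgeR. Their summed level was 1254 to 1616 CPM in control and 971 to 1768 CPM in doxorubicin hearts, with doxorubicin heart 2 the highest, Ptprc at 0 in all libraries and Cd74 alone at 580 to 1263 CPM. Fibroblast markers summed to 5874 to 6361 CPM in control and 5325 to 7745 CPM in doxorubicin hearts, with Gsn alone at 3113 to 3700 and 3110 to 4025 CPM. Of the 10 fibroblast markers, all tested, 6 had a log2 fold change above 0. At an unadjusted p under 0.05 in edgeR, 1 was higher (Postn), beside 4% of all tested symbols, and 0 were lower. Lymphocyte markers summed to 29.3 to 32.8 CPM in control and 25.3 to 35.3 CPM in doxorubicin hearts. Cardiomyocyte markers, which check the labelled tissue, summed to 127239 to 145162 CPM in control and 101713 to 116923 CPM in doxorubicin hearts, and these groups did not overlap. Of the 9 tested cardiomyocyte markers 8 had a log2 fold change below 0, 5 of them at an unadjusted p under 0.05, beside 4.11% of all tested symbols. Among them 1 passed after adjustment, Ryr2, which encodes the cardiac ryanodine receptor (log2 fold change -1.62, SE 0.25, edgeR adjusted p 0.0440), and its adjusted p was above the threshold in 5 of the 6 fits with 1 library left out (up to 0.182). The part of cell composition in any member's value was not tested.

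Of the 3 lysosomal membrane genes, 2 were measured. Lamp1, which encodes a major glycoprotein of the lysosomal membrane, had 638, 543 and 536 CPM in control and 464, 556 and 550 CPM in doxorubicin hearts. Its groups overlapped, and the log2 fold change was -0.13 (SE 0.18, 95% interval -0.51 to 0.25). Mcoln1 encodes the calcium channel TRPML1, whose calcium release activates TFEB. It had 29.4, 22.7 and 31.8 CPM in control and 27.3, 19.0 and 22.7 CPM in doxorubicin hearts, with a log2 fold change of -0.29 (SE 0.24, edgeR adjusted p 0.797).

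**Figure D3:**
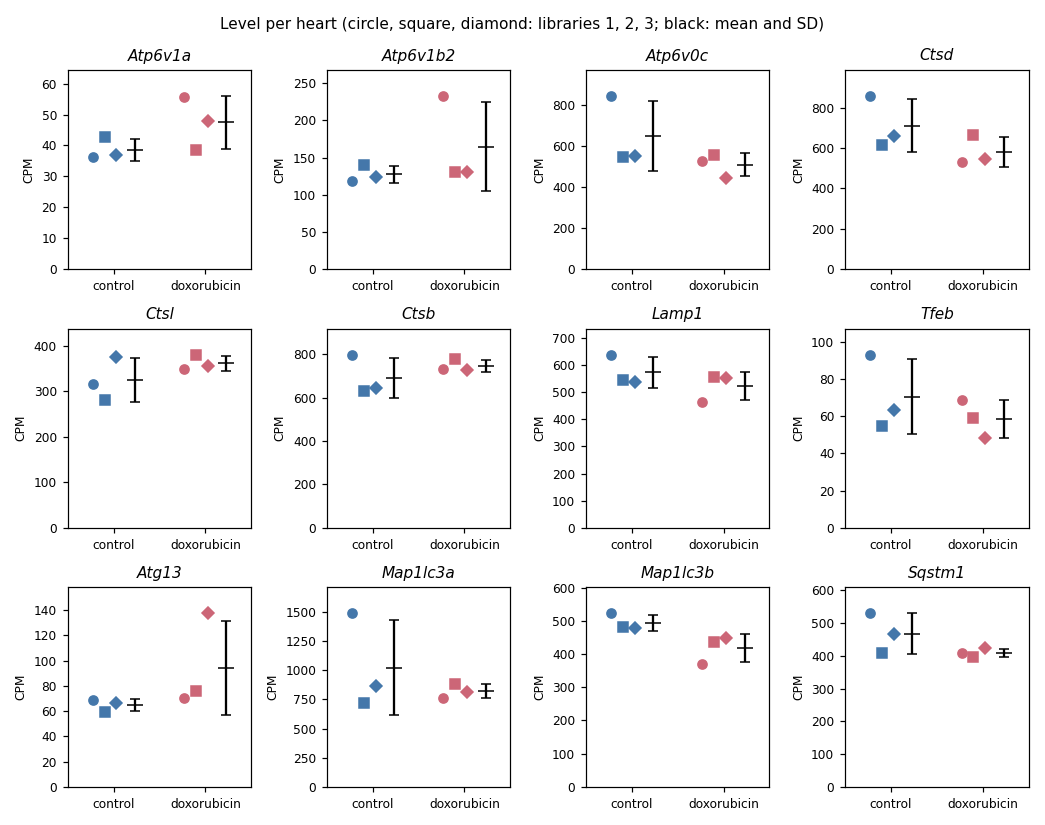
CPM per heart for 12 members, on axes that start at 0, with circles, squares and diamonds for libraries 1, 2 and 3 of each group and black bars for the mean and SD. Single hearts set several of the means, as in Atg13 (137 CPM in doxorubicin heart 3), Atp6v1b2 (233 CPM in doxorubicin heart 1) and Map1lc3a (1488 CPM in control heart 1).

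Autophagy begins with the ULK1 kinase complex, of which ATG13 is the adaptor that mTORC1 and ULK1 phosphorylate. Atg13 had 68.7, 59.1 and 66.2 CPM in control and 70.0, 75.8 and 137 CPM in doxorubicin hearts. Each doxorubicin heart was above each control heart, by a narrow margin for hearts 1 and 2 and widely for heart 3. The log2 fold change of 0.55 (SE 0.24, 95% interval 0.02 to 1.07) had an unadjusted p of 0.0428 and an adjusted p of 0.592 in edgeR. Without doxorubicin library 3 it was 0.18. Ulk1 itself had 204, 179 and 223 CPM in control and 165, 219 and 220 CPM in doxorubicin hearts, with a log2 fold change of -0.01 (SE 0.19, 95% interval -0.41 to 0.39). Atg14, which directs the lipid kinase complex to autophagy, had a log2 fold change of 0.13 (SE 0.29).

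Atg2a and Atg9a encode a lipid transfer protein and a lipid scramblase that feed the growing membrane. Atg2a had 82.9, 65.3 and 67.9 CPM in control and 50.4, 69.3 and 54.2 CPM in doxorubicin hearts, with doxorubicin heart 2 inside the control range. Atg9a had 208, 167 and 179 CPM in control and 115, 166 and 188 CPM in doxorubicin hearts, where doxorubicin heart 1 was the low one. The log2 fold changes were -0.31 (SE 0.20) and -0.24 (SE 0.20), with edgeR adjusted p-values of 0.727 and 0.801.

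The conjugation enzymes attach LC3 and GABARAP proteins to the membrane. Of 11 genes 10 were tested, 0 passed, and 5 lay on each side of 0 with a median log2 fold change of 0.01. The E1-like Atg7 (0.20, SE 0.34), the E2-like Atg3 (0.06, SE 0.22) and Atg10 (0.10, SE 0.25), the ubiquitin-like Atg12 (-0.0014, SE 0.19), its partner Atg5 (-0.27, SE 0.22) and Atg16l1 (0.08, SE 0.18) all had intervals that included 0. Atg7 was highest in doxorubicin heart 3, at 14.4 CPM against 7.38 to 9.77 CPM in the other 5 hearts, and its log2 fold change was -0.095 without that library. Among the ATG4 proteases, which cut LC3 before and after use, Atg4c had 11.8, 11.1 and 12.5 CPM in control and 8.35, 7.80 and 10.3 CPM in doxorubicin hearts. These groups did not overlap, on 25 to 44 counts per library, and the log2 fold change was -0.42 (SE 0.31, edgeR adjusted p 0.764). Atg4d had 136 CPM in control heart 1 and 60.7 to 83.3 CPM in the other 5 hearts, and its log2 fold change of -0.37 was -0.02 without that library.

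The 5 LC3 and GABARAP genes, whose lipid-linked proteins coat autophagosomes and hold cargo receptors, had log2 fold changes below 0, from -0.32 to -0.004, and 0 passed. Gabarapl2 was above 0 with library size as the only scaling (0.089) and without doxorubicin library 3 (0.051). With an offset for gene span Gabarapl2 was at 0.046, or 0.053 with a replicate block added, and the family's median was -0.057 with the offset alone. Limma voom, the replicate block and filters at a mean CPM of 1 or 5 put Gabarapl2 between 0.004 and 0.010. Gabarapl1 was at 0.064 without control library 3. Without control library 1, 3 of the 5 were above 0 (Gabarap 0.045, Gabarapl2 0.14 and Map1lc3a 0.06), and the family's median was 0.045 in place of -0.14. Map1lc3b had 523, 482 and 478 CPM in control and 371, 436 and 448 CPM in doxorubicin hearts. Every doxorubicin heart was below every control heart, with a log2 fold change of -0.24 (SE 0.17, 95% interval -0.61 to 0.13, edgeR adjusted p 0.756). Map1lc3a had 1488, 717 and 866 CPM in control and 763, 883 and 815 CPM in doxorubicin hearts. Control heart 1 stood apart and the doxorubicin hearts lay inside the control range. Its log2 fold change of -0.32 (SE 0.24) was 0.06 without control library 1. Gabarap, Gabarapl1 and Gabarapl2 were at -0.14 (SE 0.19), -0.11 (SE 0.19) and -0.004 (SE 0.19) on that scale. Members of this family share sequence, as do some cathepsins, and the treatment of reads they share is not given in the sources used here, so their separate levels are uncertain.

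Sqstm1 encodes p62, a cargo receptor that is itself degraded by autophagy. It had 529, 407 and 467 CPM in control and 407, 395 and 422 CPM in doxorubicin hearts, with a log2 fold change of -0.20 (SE 0.18, edgeR adjusted p 0.810). The groups overlapped. The table had Sqstm1 on 2 rows, with 7914 of the 7916 counts on one of them. Transcript levels say nothing of the p62 or lipid-linked LC3 protein by which autophagic flux is usually followed.

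**Figure D4:**
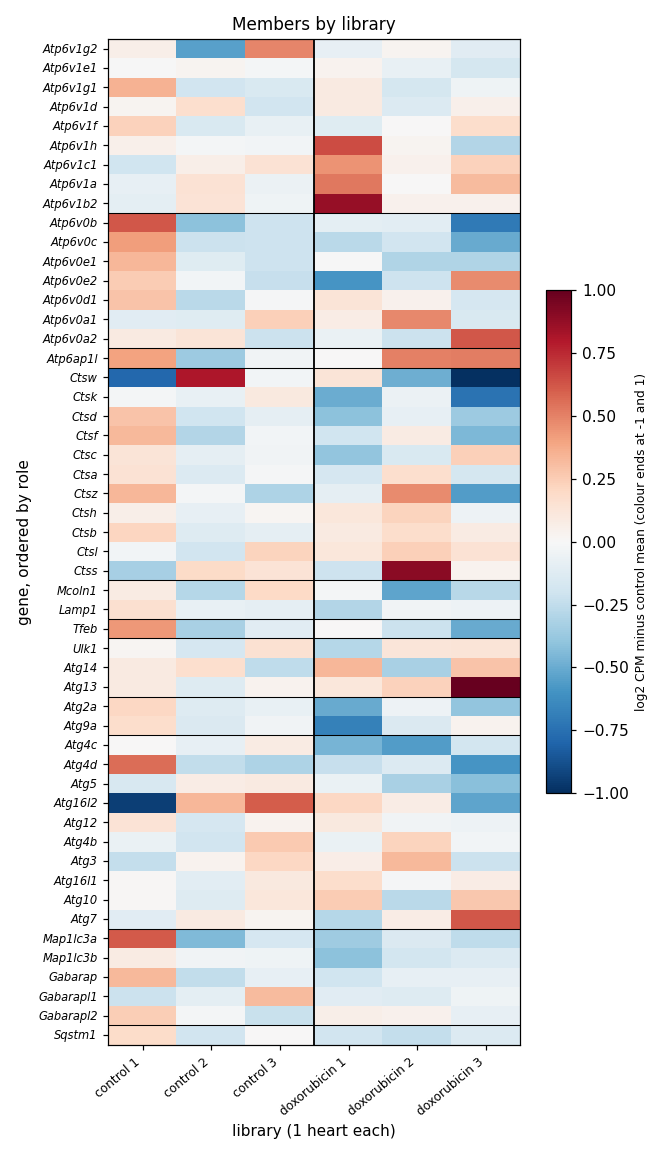
Log2 CPM of the 52 tested members in each heart (columns) minus the gene's control mean, with genes (rows) ordered by role and the colour scale ending at -1 and 1. Control heart 1 is the highest heart for 20 members, many of them V0 and LC3 genes, and doxorubicin heart 1 shows high values for Atp6v1b2, Atp6v1h, Atp6v1a and Atp6v1c1.

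The hearts within a group differed in which members were high. Control heart 1 was the highest of the 6 for 20 members (38.5%), where it was the highest for 26.7% of all tested symbols. It was the lowest for 7 members (13.5%), against 27.5% of all tested symbols. The median log2 CPM of the members relative to their control means was 0.09 in that heart, -0.12 and -0.03 in control hearts 2 and 3, and -0.07, -0.04 and -0.08 in doxorubicin hearts 1, 2 and 3. For the V0 genes the median in control heart 1 was 0.28 and for the LC3 and GABARAP genes 0.25. Control library 1 also differed in other respects: erythroid markers summed to 7434 CPM there and to 701 to 2735 CPM in the other 5 libraries, and its TMM factor was 0.892, the others being 1.01 to 1.05. The part of these in the members' values was not tested.

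The remaining genes of these pathways were examined in lists of other lysosomal enzymes and membrane proteins, other autophagy genes, and the mTORC1 and TFE regulators. Of 115 listed genes 101 were tested and 0 passed the adjusted threshold in edgeR. At an unadjusted p under 0.05 there were 4 with positive and 4 with negative log2 fold changes, beside 4% and 4.11% of all tested symbols. Control and doxorubicin values were fully separated for 7 of the 101 upward and 7 downward, where the share of all tested symbols was 6.39% upward and 7.06% downward. The median log2 fold change was 0.05.

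The genes named next had the 2 smallest edgeR p-values of each list, a choice that favours large values, so their sizes are not set against those of the members. Igf2r, the mannose 6-phosphate receptor that carries new hydrolases to lysosomes and also clears insulin-like growth factor 2, had 148, 186 and 178 CPM in control and 336, 220 and 235 CPM in doxorubicin hearts. The groups did not overlap, with a log2 fold change of 0.63 (SE 0.20, edgeR adjusted p 0.378). Tpcn1, a cation channel of endosomes and lysosomes, had 146, 136 and 114 CPM in control and 85.1, 97.7 and 84.3 CPM in doxorubicin hearts, again with no overlap and a log2 fold change of -0.57 (SE 0.18, edgeR adjusted p 0.361). Lamtor1, which anchors the Ragulator complex and with it mTORC1 on the lysosome, had 165, 126 and 117 CPM in control and 73.8, 93.3 and 101 CPM in doxorubicin hearts. All doxorubicin hearts were below all control hearts, with a log2 fold change of -0.60 (SE 0.20, edgeR adjusted p 0.395).

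Foxo3, a transcription factor known to drive autophagy genes in muscle, had 11.8, 10.2 and 8.52 CPM in control and 13.2, 14.0 and 30.9 CPM in doxorubicin hearts. The groups did not overlap and, as for Atg13, doxorubicin heart 3 was far above the rest; the log2 fold change was 0.94 (SE 0.36, edgeR adjusted p 0.498). Nrbf2, a subunit of the autophagy lipid kinase complex, had 9.37 to 12.4 CPM in control and 5.14 to 7.96 CPM in doxorubicin hearts, on 16 to 33 counts, with a log2 fold change of -0.77 (SE 0.35, edgeR adjusted p 0.592). The ubiquitin-binding receptor gene Optn had a log2 fold change of 0.41 (SE 0.22), with overlapping groups.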

How the data were processed

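Per the labels' protocols, an mRNA kit of Watchmaker Genomics was used and sequencing was on a NovaSeq instrument. The authors deposited raw read counts per gene symbol for the 6 libraries. FastQC, Trimmomatic, STAR, HTSeq and the build mRatBN7.2 are named in the submitters' processing notes. The counting mode, strand use and annotation are not given in the sources used here. The table held 18473 rows, and rows of a symbol were summed. Library totals were 2219685 to 3508282 counts.

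The test was edgeR's quasi-likelihood test (edgeR 4.0.16, R 4.3.3) of doxorubicin against control on all 6 libraries, with an intercept and treatment, TMM factors, robust dispersions and filterByExpr (minimum count 10, minimum total 15), which kept 9205 symbols. P-values were adjusted by Benjamini-Hochberg over these. Intervals are t intervals from the fit's degrees of freedom, with the standard error taken from the F statistic. CPM values use TMM factors, and log2 CPM a prior count of 2. Alternatives were other scaling factors and low-count filters, non-robust dispersions, symbols on 1 row only, a replicate block, an offset for the trend of log ratio on gene span, each library left out, DESeq2 1.42.0 and limma 3.58.1 (voom). The fit was tested on simulated data. Sequences and chromosomes came from RefSeq tables of GRCr8, matched by symbol, where all 72 members were found in the gene table and 61 in the promoter table. Python 3.11.15 was used for tables and figures.

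The members and gene lists were chosen with earlier results of these data known. Members named were those at an unadjusted p under 0.05, those whose groups do not overlap, the 3 largest log2 fold changes in each direction and 12 fixed genes. Of each other pathway list, the 2 smallest p-values were named. Other genes were named after their values were seen. Titles call the libraries biological replicates and describe no pairing of animals.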

Additional observations from a re-analysis of the deposited data

How the results depend on the processing

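All alternatives were planned, and 0 members passed the adjusted threshold in any of the 19. Against 5 symbols past the threshold, library size only and limma voom gave 0 (713 and 740 at an unadjusted p under 0.05). A mean CPM of at least 5, non-robust dispersion and only symbols on 1 row gave 1 each, the gene span offset 13, no filter 61 and DESeq2 74. Leaving out 1 library gave 0 to 35, with 0 for control library 1, control library 3, doxorubicin library 1 and doxorubicin library 3, and 35 for doxorubicin library 2. Fits without those 4 libraries gave 531 to 636 symbols at an unadjusted p under 0.05.

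Against 1 member at an unadjusted p under 0.05, no filter gave 2 of 62 (Atg13 and Atp6v1c2), beside 978 of 13050 symbols. Limma voom and the gene span offset gave 0 of 52, beside 740 and 817 of 9205 symbols. Leaving out 1 library gave 0 to 1, beside 531 to 895 of all tested symbols. The count was 0 without control library 1 and without control library 3. The 1 member was Map1lc3a without control library 2, Atp6v1b2 without doxorubicin library 3 and Atg13 without doxorubicin libraries 1 and 2, so that Atg13 was not called in 4 of these 6 fits. The median log2 fold change of the members was -0.05, 0.045 with library size only, where the median of all symbols moved to 0.10 from 0.02, and -0.091 to 0.030 with 1 library left out, the highest without control library 1. The cause of these changes was not tested. Of the 52 members, 24 changed sign with at least 1 library left out. Of the 15 tested members named by rule, 14 kept their direction in every alternative that tested them. Several of the 15 were picked in these same data for their p-value, separated groups or size, which favours a kept direction. Ulk1 became 0.081 with library size only, 0.0014 and 0.0055 with a mean CPM of at least 1 and 5, and -0.076 to 0.12 with 1 library left out.

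The replicate number as a block gave 13 symbols past the adjusted threshold and a smallest member adjusted p of 0.759 in edgeR. At an unadjusted p under 0.05 it gave 0 members, beside 607 of 9205 symbols. The block with the gene span offset gave 13 symbols and, at that unadjusted p, 0 members beside 659 of 9205 symbols. Same-numbered libraries did not deviate together (correlations of -0.19, -0.06 and 0.02), and 1 of 6 libraries correlated best with its own number. The SE ran from 0.17 to 0.59 over the 52 members, the largest for Ctsw at 4 to 16 counts per library.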

Other observations

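Atp6v1c2, a V1 stator subunit gene known from epithelia, was removed by the low-count filter. Control hearts had 0, 0 and 2 counts of it, and doxorubicin hearts 6, 4 and 6 counts, which is at most 1.93 CPM. The groups did not overlap. Of the 9205 tested symbols, which passed the filter and do not include Atp6v1c2, 6.39% were separated upward. The share among symbols with as few counts was not computed. Without the filter it had an unadjusted p of 0.0232 and an adjusted p of 0.536 in edgeR. In that fit 978 of 13050 symbols had an unadjusted p under 0.05. It was singled out after its values were seen.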
